A study of Mus musculus with 8 samples.

Results

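The BCL2 family is the set of proteins that decide whether the outer mitochondrial membrane stays intact, and the 10 members described here are Bcl2, Bcl2l1 (BCL-XL), Mcl1, Bax, Bak1, Bid, Bcl2l11 (BIM), Bbc3 (PUMA), Pmaip1 (NOXA) and Bmf. They were taken by gene symbol from the deposited expression table, which listed 17634 genes, and all 10 were in the table and passed the filter on low counts. RNA came from small intestinal crypts, the epithelial glands at the base of the villi, where the dividing cells of the gut lining lie. The knockout libraries came from miR-29ab1-/- mice (4 libraries), in which the Mir29a and Mir29b-1 locus is deleted, and the comparison libraries from WT mice (4 libraries). All 8 libraries were of strain C57BL/6N and were taken 3 days after irradiation, so the knockout and the WT crypts share the radiation exposure, and the comparison is between genotypes after irradiation. Neither the radiation dose nor the age of the mice is stated, nor whether the deletion is in all cells. Nothing in the labels says that each library is a separate mouse, and the p-values therefore reflect the spread between these libraries, which may be technical in part. Replicate 4 of each genotype had almost no counts over Y-linked genes (1 and 3), unlike the other libraries, so it did not come from the same mouse as they did.

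As background, Bcl2, Bcl2l1 and Mcl1 are the guardians: they hold the pore-forming effectors Bax and Bak1 in check. The BH3-only proteins Bid, Bcl2l11, Bbc3, Pmaip1 and Bmf carry stress signals by binding guardians or by activating effectors, and once effectors open the membrane, cytochrome c escapes and caspases are switched on. In the irradiated small intestine, Bbc3 is known as the p53-induced gene behind much of the early death of crypt cells. Mcl1 is a known miR-29 target in human cells, and Bcl2l11, Bbc3, Bmf and Bak1 are known miR-29b targets in mouse neurons.

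The 3 mature sequences of the miR-29 family are shown because they share one seed, bases 2 to 8, in capitals (RefSeq, GRCm38.p6). The deleted locus encodes miR-29a-3p (chr6:31062673-31062694, minus strand) and a copy of miR-29b-3p (chr6:31063025-31063047, minus strand). The other copy of miR-29b-3p (chr1:195037091-195037113, plus strand) and miR-29c-3p (chr1:195037600-195037621, plus strand) lie outside the deleted locus.
miR-29a-3p: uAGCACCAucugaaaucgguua
miR-29b-3p: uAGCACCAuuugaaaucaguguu
miR-29c-3p: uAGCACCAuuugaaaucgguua

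The complement of that seed, TGGTGCT, was searched on the sense strand of 3′ UTRs (GENCODE M21, GRCm38; for each gene, the longest one), and 5 of the 10 members held 6 matches. Mcl1, Bak1 and Bmf each held a match followed by an A, the form called an 8mer, Bcl2l11 held a 7-base match and Bbc3 held 2 of them. No match was found in the 3′ UTRs of Bcl2, Bcl2l1, Bax, Bid or Pmaip1. Among all 12648 tested genes with an annotated 3′ UTR, 15.5 percent held a match, and the share went with UTR length, at 8.41 percent above 500 and up to 1000 bases, 14.3 percent up to 2000, 26.3 percent up to 4000 and 46.9 percent above 4000 bases. The members were chosen with miR-29 targets among them, so their share of matches is a description. Each site is printed with its flanks, the match in capitals, because these are the letters in the members' own transcripts that the deleted microRNAs could pair with.
Mcl1 (chr3:95661845-95661873, plus strand, UTR of 2353 bases): tagagtcttaaccaTGGTGCTattcactg
Bak1 (chr17:27020729-27020757, minus strand, UTR of 1121 bases): accccaacattgcaTGGTGCTactgaacc
Bcl2l11 (chr2:128158399-128158427, plus strand, UTR of 4218 bases): tcatgtccctctctTGGTGCTgcgacagt
Bbc3, upstream match (chr7:16317536-16317564, plus strand, UTR of 971 bases): tcaggaaaggctgcTGGTGCTggctgccc
Bbc3, downstream match (chr7:16317621-16317649, plus strand): tggcctcaggccccTGGTGCTtccccccc
Bmf (chr2:118531349-118531377, minus strand, UTR of 3801 bases): gtaaggaaagacatTGGTGCTataatgaa

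In miR-29ab1-/- crypts, all 3 guardian transcripts and 4 of the 5 BH3-only transcripts were higher than in WT crypts, Bid was lower, and neither effector changed past the threshold. In the quasi-likelihood test of edgeR on the counts of all genes, with p-values adjusted by the Benjamini-Hochberg method over 12908 tested genes and a threshold of 0.05, 7 of the 10 members were higher, against 24.2 percent of all tested genes, and 1 was lower, against 23.1 percent of all, so that 8 were called where 47.3 percent of all genes were. The median log2 fold change, miR-29ab1-/- over WT, was 0.82 over the 10 members and 0.03 over all tested genes. In CPM the ranges of the groups did not overlap for 7 members, 6 higher and 1 lower in knockout crypts, against 22.7 percent of all tested genes in each direction and 45.4 percent in either. When libraries were scaled by total counts alone, the median of all genes moved to −0.23 and 4 members were called higher and 1 lower, while 2089 genes, 16.2 percent of all, were called higher and 4011, 31.1 percent, lower (47.3 percent in either direction). With TMM factors 3129 genes were called higher and 2976 lower. CPM are counts scaled by library size with TMM factors, and fold changes use the same scaling unless another is named. In FPKM 6 members and 49.2 percent of all genes were called. With the replicate number as a block 8 members and 56.0 percent of all genes were called. Of the sets of 7 libraries, that without WT replicate 4 gave 6 members and 38.2 percent of all genes, and that without knockout replicate 3 gave 8 members and 48.8 percent.

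**Figure D1:**
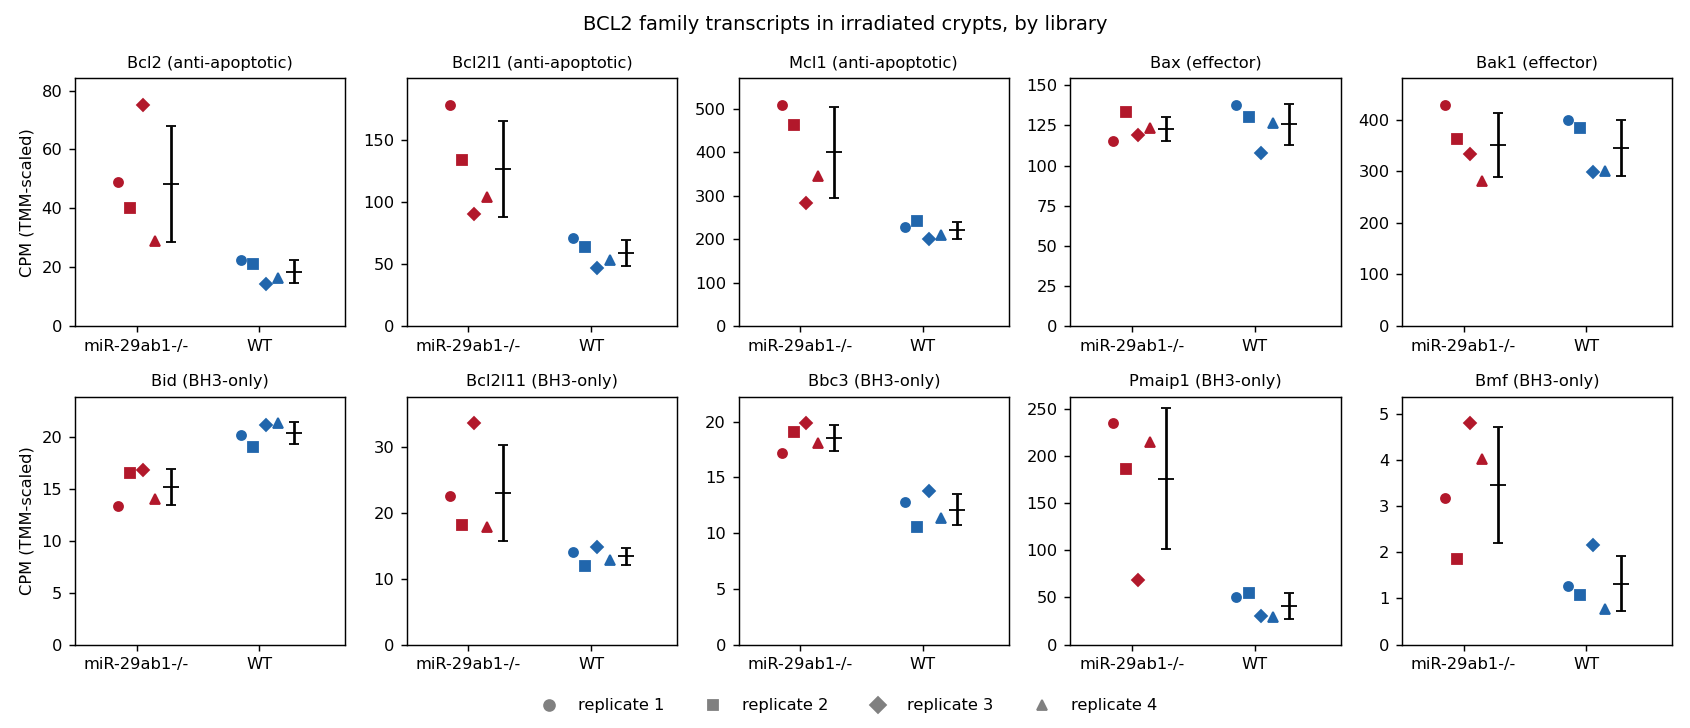
Level of each of the 10 transcripts in CPM with TMM factors (each vertical axis starts at 0) in the 4 miR-29ab1-/- libraries on the left of each panel and the 4 WT libraries on the right, with symbols for replicate numbers and black bars for the mean and SD. Groups are apart for Bcl2, Bcl2l1, Mcl1, Bid, Bcl2l11, Bbc3 and Pmaip1, and they overlap for Bax, Bak1 and Bmf.

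Mcl1 is the guardian with a short-lived protein, which cells must keep making. It stood at 509, 464, 283 and 345 CPM in miR-29ab1-/- replicates 1 to 4, against 229, 243, 200.4 and 209 CPM in WT replicates 1 to 4. The lowest knockout library lay above the highest WT library. Mcl1 averaged 400.3 ± 104 CPM in knockout and 220.2 ± 19.2 CPM in WT crypts (SD, n = 4 each), and was 1.82-fold higher (log2 0.86, SE 0.19, edgeR adjusted p = 0.0060). With total counts as the scaling its log2 fold change was 0.56, still called (edgeR adjusted p = 0.0056), and it was 0.55 on the log2(FPKM + 0.5) scale (limma adjusted p = 0.0034).

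Bcl2l1 encodes BCL-XL, the guardian that binds both effectors and most BH3-only proteins. It was measured at 178, 134, 90.5 and 104 CPM in miR-29ab1-/- crypts and at 70.5, 63.2, 46.7 and 53.5 CPM in WT crypts. All knockout libraries were above all WT libraries, with replicates 1 and 2 the highest 2 of each genotype. The difference was 2.16-fold (log2 1.11, SE 0.22, edgeR adjusted p = 0.0037).

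Bcl2, the founding guardian, had 48.8, 40.1, 75.1 and 28.9 CPM in miR-29ab1-/- crypts and 22.3, 21.1, 14.2 and 16.3 CPM in WT crypts. The groups were apart, and knockout replicate 3 stood above the rest. Bcl2 was 2.61-fold higher in knockout crypts (log2 1.39, SE 0.28, edgeR adjusted p = 0.0040). Without knockout replicate 3 the log2 fold change was 1.09 (edgeR adjusted p = 0.0038), and on the log2(FPKM + 0.5) scale the difference was 0.78 (limma adjusted p = 0.042).

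The effectors were level between genotypes on the CPM scale. Bax, which moves from the cytosol to mitochondria when activated, had 115, 133, 119 and 123 CPM in miR-29ab1-/- crypts and 138, 130.3, 108 and 127 CPM in WT crypts. The ranges overlapped, with a log2 fold change of −0.03 (SE 0.11, edgeR adjusted p = 0.81). Bak1, the effector that resides in the mitochondrial membrane, had 428, 362, 332 and 281 CPM in knockout crypts and 399.7, 384, 298 and 299.8 CPM in WT crypts. Here too the ranges overlapped (log2 0.02, SE 0.17, edgeR adjusted p = 0.92). In FPKM, which scale with library totals, Bax was lower in knockout crypts by 0.31 on the log2(FPKM + 0.5) scale (limma adjusted p = 0.047), a value to be read beside the median of −0.21 over all genes on that scale, and Bak1 was at −0.25 (limma adjusted p = 0.11).

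Pmaip1 (NOXA), a BH3-only protein that neutralises MCL1 and a known p53 target, differed the most among the members. Its level was 235, 187, 68.4 and 216 CPM in miR-29ab1-/- crypts, against 50.7, 55.2, 30.1 and 28.9 CPM in WT crypts. Knockout replicate 3 was well below the other 3 knockout libraries and still above every WT library. The difference was 4.29-fold (log2 2.10, SE 0.39, edgeR adjusted p = 0.0026).

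Bbc3 (PUMA), which binds all the guardians, differed less but with little spread. It had 17.2, 19.1, 19.8 and 18.1 CPM in miR-29ab1-/- crypts and 12.8, 10.6, 13.7 and 11.4 CPM in WT crypts. The ranges were apart in CPM and the difference was 1.53-fold (log2 0.61, SE 0.13, edgeR adjusted p = 0.0050). In FPKM the ranges overlapped, with knockout replicates 1 and 2 at 7.86 and 8.94 and WT replicate 3 at 9.14. With total counts as the scaling the log2 fold change was 0.35 and the call was lost (edgeR adjusted p = 0.16).

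Bcl2l11 (BIM), an activator of Bax that FOXO factors are known to induce, had 22.5, 18.1, 33.5 and 17.8 CPM in miR-29ab1-/- crypts and 14.02, 11.8, 14.8 and 12.8 CPM in WT crypts. Knockout replicate 3 was the highest library, and the CPM ranges were apart with or without it. The difference was 1.72-fold (log2 0.78, SE 0.21, edgeR adjusted p = 0.015), and 0.54 on the log2 scale without that library (edgeR adjusted p = 0.016). Scaling by total counts put it at 0.54 and ended the call (edgeR adjusted p = 0.14). In FPKM the ranges overlapped, with knockout replicates 2 and 4 at 3.25 and 3.78 and WT replicate 3 at 3.9.

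Bmf, a BH3-only protein held at the cytoskeleton in healthy cells, had the fewest counts of the members: 37, 21, 48 and 43 counts were recorded in miR-29ab1-/- crypts and 18, 12, 36 and 14 counts in WT crypts, or 3.17, 1.86, 4.79 and 4.02 CPM in knockout against 1.27, 1.08, 2.15 and 0.77 CPM in WT crypts. The ranges overlapped, since WT replicate 3 was above knockout replicate 2. Bmf was 2.60-fold higher (log2 1.38, SE 0.41, edgeR adjusted p = 0.021). The call was lost without knockout replicate 4 (edgeR adjusted p = 0.0534), without WT replicate 1, 2 or 4 (0.0538, 0.0551 and 0.0559), with total counts as the scaling (0.076) and in replicates 1 to 3 alone (log2 1.04, 0.11).

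Bid, which caspase-8 cleaves to link death receptors to mitochondria, was the only member called lower. It had 13.4, 16.5, 16.9 and 14.03 CPM in miR-29ab1-/- crypts and 20.2, 19.0, 21.2 and 21.3 CPM in WT crypts, with no overlap. Its level was 1.34-fold lower in knockout crypts (log2 −0.43, SE 0.12, edgeR adjusted p = 0.019). The call was lost without WT replicate 4 (edgeR adjusted p = 0.0516), in replicates 1 to 3 alone (0.084) and when knockout replicates 3 and 4 and WT replicate 3, the libraries with the most fibroblast transcripts, were left out (0.091). With total counts as the scaling its log2 fold change was −0.69 (edgeR adjusted p = 0.012), and in FPKM −0.67 (limma adjusted p = 0.0086).

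**Figure D2:**
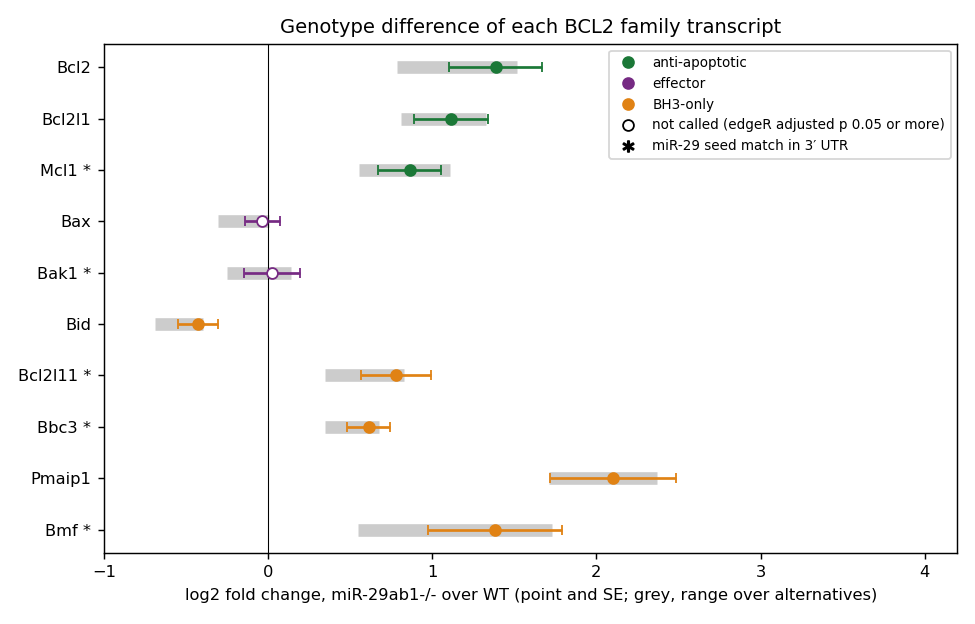
Log2 fold change, miR-29ab1-/- over WT, of each member (horizontal axis; point and SE from edgeR, filled where called), coloured by role, with the range over the alternatives in grey and an asterisk for a miR-29 seed match in the 3′ UTR. Pmaip1 is farthest to the right at 2.10 and Bid is the single point called to the left at −0.43. Bax and Bak1 are open circles near 0.

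Set beside the seed matches, the members divided as follows. Of the 5 with a match, Mcl1, Bcl2l11, Bbc3 and Bmf were higher in miR-29ab1-/- crypts and Bak1 was not called. Of the 5 without a match, Bcl2, Bcl2l1 and Pmaip1 were higher, Bid was lower and Bax was not called. Over all tested genes, 23.5 percent of the 1965 with a match and 24.6 percent of the 10683 without were called higher, with median log2 fold changes of 0.04 and 0.03.

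Per length, in FPKM, the order of the members was much the same in both genotypes. Bak1 and Bax led at 169 ± 19.3 and 147 ± 18.3 FPKM in miR-29ab1-/- crypts and 201 ± 21.3 and 181 ± 8.68 FPKM in WT crypts, and their ranges overlapped each other in both genotypes. Mcl1 came next at 106 ± 14.2 FPKM in knockout and 71.7 ± 2.63 FPKM in WT crypts, below Bax in all libraries. Pmaip1 was at 61.8 ± 24.0 FPKM in knockout and 17.7 ± 5.02 FPKM in WT crypts, and Bcl2l1 at 48.1 ± 9.48 FPKM in knockout and 27.1 ± 3.62 FPKM in WT crypts. In knockout crypts the ranges of Pmaip1 and Bcl2l1 overlapped, and in WT crypts Bcl2l1 was above Pmaip1 in all 4 libraries. Bbc3 was above Bid in all 4 knockout libraries, at 9.65 ± 1.62 against 7.88 ± 1.65 FPKM, with overlapping ranges, while in WT crypts Bid was above Bbc3 in all 4, at 12.7 ± 1.33 against 7.45 ± 1.27 FPKM. Bcl2 (6.82 ± 3.42 FPKM in knockout, 3.49 ± 0.56 in WT) and Bcl2l11 (4.68 ± 2.08 FPKM in knockout, 3.39 ± 0.41 in WT) overlapped each other in both genotypes, and Bmf was lowest at 0.73 ± 0.34 FPKM in knockout and 0.33 ± 0.17 FPKM in WT crypts. Errors are SDs over 4 libraries.

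Summed by role, the 3 guardians gave 161 ± 21.3 FPKM in miR-29ab1-/- crypts and 102 ± 5.67 FPKM in WT crypts, and the 2 effectors gave 315 ± 23.4 FPKM in knockout and 382 ± 26.8 FPKM in WT crypts. The 5 BH3-only transcripts together gave 84.7 ± 19.8 FPKM in knockout and 41.5 ± 3.42 FPKM in WT crypts (SD, n = 4 each). The difference between these 2 sums was largely that of Pmaip1, which averaged 61.8 FPKM in knockout and 17.7 FPKM in WT crypts. Of the rest, Bbc3, Bcl2l11 and Bmf had higher mean FPKM in knockout crypts and Bid had lower.

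A factor applied to all genes of a library cancels in the ratio of an effector to a guardian. The unit, CPM or FPKM, can still change the difference between genotypes. Bax over Mcl1 in FPKM was 1.01, 1.27, 1.84 and 1.56 in miR-29ab1-/- crypts, against 2.65, 2.41, 2.38 and 2.65 in WT crypts. The ratio of Bax to Bcl2l1 was 1.98, 3.04, 4.03 and 3.68 in knockout and 5.98, 6.46, 7.19 and 7.32 in WT crypts. Bak1 over Mcl1 was 1.51, 1.40, 2.10 and 1.45 in knockout and 3.12, 2.85, 2.66 and 2.57 in WT crypts. In these, and for Bax over Bcl2 and Bak1 over Bcl2l1, every knockout library lay below every WT library. The mean log2 ratio of FPKM, knockout minus WT, was −1.17 for Bax over Bcl2, −1.13 for Bax over Bcl2l1, −0.86 for Bax over Mcl1, −0.81 for Bak1 over Mcl1 and −1.07 for Bak1 over Bcl2l1. In CPM the values were −1.35, −1.11, −0.86, −0.81 and −1.06 in the same order, with Bax over Bcl2 moved the most by the unit. These ratios combine the members' values above and were given no test. They are ratios of transcripts, not of proteins.

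**Figure D3:**
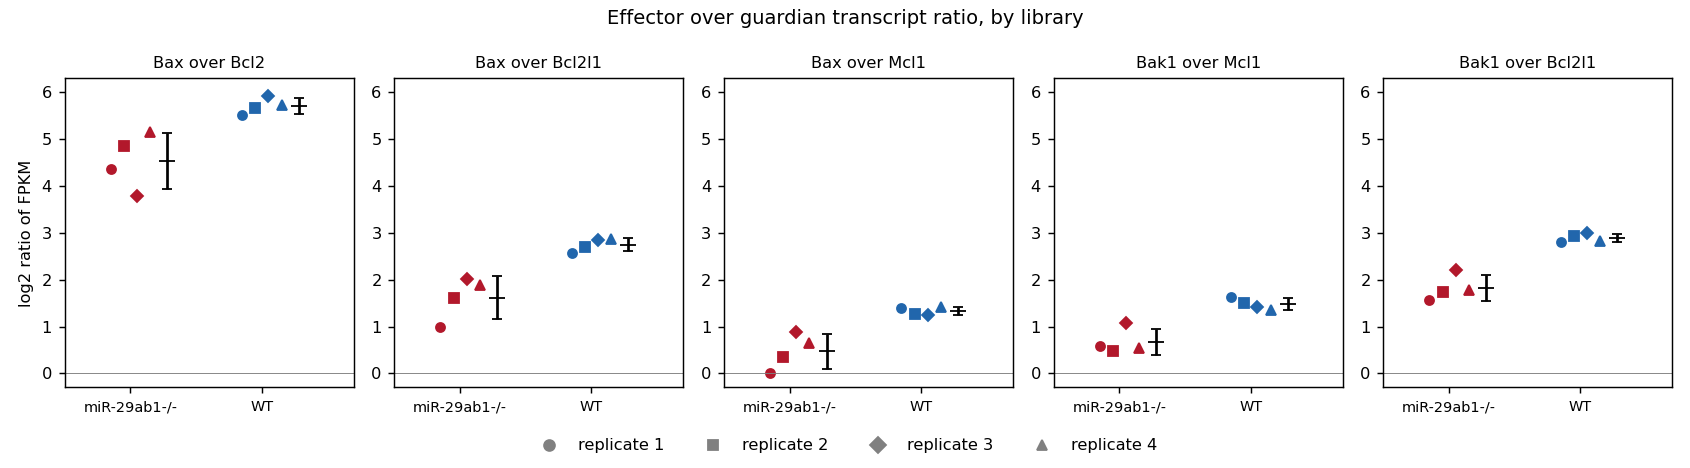
Log2 ratio of the FPKM of an effector to that of a guardian (vertical axis, same scale in each panel; 0 is equal FPKM) in each miR-29ab1-/- library on the left and each WT library on the right, with black bars for the mean and SD. All knockout points lie below all WT points in the 5 panels, and Bax over Mcl1 in knockout replicate 1 is close to 0.

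Epithelial keratins and adhesion genes were high in all libraries, their 5 markers summing to 8545 to 12880 CPM in miR-29ab1-/- and 8588 to 11013 CPM in WT crypts. Of these, Epcam was called higher (log2 0.74, edgeR adjusted p = 0.040) and Krt18 lower (log2 −0.64, edgeR adjusted p = 0.010). Markers of the cell types within the epithelium also differed between genotypes. In bulk RNA, more or fewer cells of a type and more or less RNA per cell cannot be told apart. All 10 enterocyte markers were higher, summing to 25380 to 85422 CPM in knockout and 1565 to 10427 CPM in WT crypts, and all 10 proliferation markers were lower, at 633 to 1034 CPM in knockout and 1814 to 2262 CPM in WT crypts. Of 8 Lgr5+ stem cell markers, 5 were lower and none higher (sums of 330.2 to 545 CPM in knockout against 752 to 840.2 CPM in WT crypts). Among the 4 knockout libraries, Mcl1 and Bcl2l1 had the same order as the enterocyte sum, which was 85422, 76620, 25380 and 36806 CPM in replicates 1 to 4. In WT replicates 1 to 4 the sum was 10352, 10427, 2985 and 1565 CPM. Neither Mcl1 nor Bcl2l1 had that order in WT crypts, though WT replicates 1 and 2 were the highest 2 for each. Of the goblet cell markers 6 of 7 were higher, and of the enteroendocrine markers 4 of 7. All 5 tested tuft cell markers were higher, the list summing to 44.2 to 58.2 CPM in knockout and 12.6 to 21.8 CPM in WT crypts, and none of 6 Paneth cell markers was called. The part of these cell types in the members' differences was not tested.

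Lymphocytes are known to express Bcl2 and Bcl2l11 at high levels, and T cell transcripts varied between libraries. The 8 T cell markers, among them Cd3e, Cd8a and the granzyme Gzma, were all tested and none was called, but their sum was 769, 312, 1647 and 209 CPM in miR-29ab1-/- crypts, against 435, 458, 363 and 52.1 CPM in WT crypts. The knockout libraries had the same order for this sum, for Bcl2 and for Bcl2l11, and replicate 3 was highest in all of them. Knockout replicate 3 was also the highest library for Bbc3 and Bmf. The WT libraries did not share an order: WT replicate 2 had the highest T cell sum and the lowest Bcl2l11, at 11.8 CPM. WT replicate 4 had the lowest T cell sum, with more Bcl2 than WT replicate 3 (16.3 against 14.2 CPM). In knockout replicates 2 and 4, whose T cell sums were below those of WT replicates 1, 2 and 3, Bcl2 was 40.1 and 28.9 CPM and Bcl2l11 was 18.1 and 17.8 CPM, all above every WT library. The part of T cell RNA in the differences of Bcl2 and Bcl2l11 was not tested. B and plasma cell markers were low throughout, at 1.59 to 10.3 CPM in knockout and 4.39 to 12.0 CPM in WT crypts, with none of the 2 tested markers called. Fibroblast markers, of which 4 of 6 were tested and none called, ran from 11.8 to 193 CPM in knockout and from 12.5 to 169.7 CPM in WT crypts; without the 3 libraries in which they were highest, a comparison added after the data were seen, 7 members were higher and none lower, with 47.5 percent of all genes called in either direction.

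**Figure D4:**
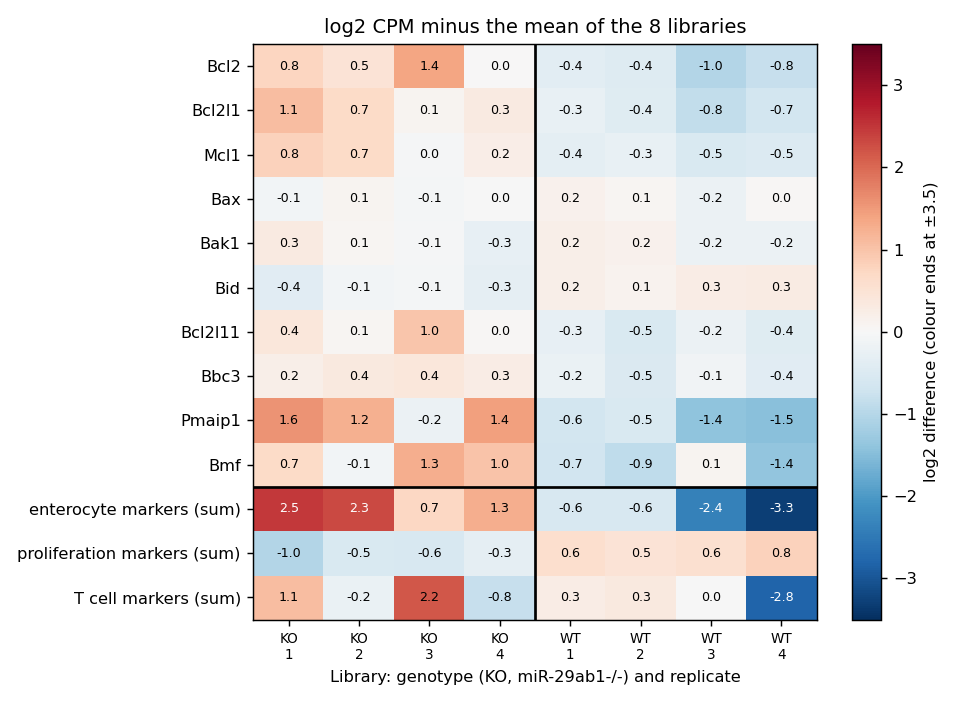
Log2 CPM of each member, and of the summed markers of enterocytes, proliferation and T cells, minus the mean of the 8 libraries (colour and printed value), with the 4 miR-29ab1-/- libraries on the left and the 4 WT libraries on the right. Replicate 3 of the knockout is highest for Bcl2, Bcl2l11, Bbc3, Bmf and the T cell sum. It is lowest of the knockout libraries for Mcl1, Bcl2l1, Pmaip1 and the enterocyte sum.

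By pattern over the 8 libraries, the genes most like Mcl1 among 9422 tested genes with a mean of at least 10 CPM were Ppm1a, a protein phosphatase, 4833439L19Rik and Tspan5, a tetraspanin, with Pearson correlations of log2 CPM of 0.997, 0.996 and 0.995. For Pmaip1, the member with the smallest p, they were Acox2, a peroxisomal acyl-CoA oxidase, Atp1b1, a sodium pump subunit, and Cdr2, at 0.995, 0.994 and 0.994. All points share the genotype split, and 16.6 percent of these genes had a correlation above 0.9 with Mcl1 and 12.8 percent with Pmaip1.

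Among the wider family outside the 10, Bnip3 and Bcl2l15 were higher in miR-29ab1-/- crypts and Bcl2l13 was lower. Of 14 further BCL2 family genes in the table, 12 were tested, 5 were higher and 1 was lower in miR-29ab1-/- crypts (median log2 0.55). The share called is near the 47.3 percent of all tested genes. With total counts as the scaling 2 were higher and 3 lower, against 16.2 percent and 31.1 percent over all genes. Bnip3, an atypical BH3 protein of mitophagy, was 4.65-fold higher, at 15.4 ± 7.51 CPM in knockout and 3.33 ± 0.95 CPM in WT crypts (SD, n = 4 each; edgeR adjusted p = 0.0024). Bcl2l15 was 2.06-fold higher (84.8 ± 23.3 CPM in knockout against 41.2 ± 11.0 CPM in WT crypts, edgeR adjusted p = 0.0083). Bcl2l13, a mitophagy receptor, was the gene called lower, at 44.1 ± 3.36 CPM in knockout and 61.0 ± 4.34 CPM in WT crypts (log2 −0.47, edgeR adjusted p = 0.0046). The guardian Bcl2l2 (BCL-W, log2 0.54), the BH3-only Bad (log2 0.71) and Bnip3l (log2 0.61) were also higher (edgeR adjusted p = 0.020, 0.025 and 0.015). Their calls were lost with total counts as the scaling and in several sets of 7 libraries: for Bcl2l2 without knockout replicate 1 or 4 or WT replicate 1 or 2 (edgeR adjusted p up to 0.069), for Bad without knockout replicate 1 or 2 or WT replicate 2, 3 or 4 (up to 0.098), and for Bnip3l without knockout replicate 1 or 2 (up to 0.066). Without knockout replicate 4 the log2 fold change of Bcl2l2 was 0.35, and without knockout replicate 2 that of Bad was 0.45. Without knockout replicate 1, 3 genes of this list were called.

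Downstream of the membrane, Casp6, Casp9, Apaf1 and the caspase inhibitor Xiap were higher in miR-29ab1-/- crypts, and Diablo and Htra2 were lower. Of 13 genes of the pore, the apoptosome and the caspases, 5 were higher and 4 lower (median log2 0.24), against 24.2 percent higher and 23.1 percent lower over all tested genes, and in replicates 1 to 3 alone 3 were higher and 2 lower. The initiator Casp9 was 1.61-fold higher (23.7 ± 3.78 CPM in knockout against 14.7 ± 0.86 CPM in WT crypts, SD, n = 4; edgeR adjusted p = 0.0036), with the apoptosome scaffold Apaf1 (log2 0.63, edgeR adjusted p = 0.013; 0.18 with total counts as the scaling) and the caspase Casp6 (log2 0.83, edgeR adjusted p = 0.0067). Xiap, which inhibits caspases, was 1.74-fold higher, at 126 ± 22.0 CPM in knockout and 72.4 ± 1.79 CPM in WT crypts (edgeR adjusted p = 0.0017). Diablo and Htra2, the mitochondrial proteins that counter Xiap once released, were lower by log2 fold changes of −0.54 and −0.56 (edgeR adjusted p = 0.0062 and 0.0091). The channel genes were mixed: Vdac2, whose protein is known to hold Bak1, was higher (log2 0.62), and Vdac1 and Vdac3 were lower (−0.37 and −0.39), with edgeR adjusted p = 0.034, 0.029 and 0.043. Each of the Vdac calls was lost without at least 5 of the 8 libraries in turn, with edgeR adjusted p up to 0.087 for Vdac1 (without WT replicate 4), 0.124 for Vdac2 (without knockout replicate 1) and 0.109 for Vdac3 (without WT replicate 1). Cycs, cytochrome c, was at a log2 fold change of 0.49 (edgeR adjusted p = 0.095). It was called with the replicate number as a block (edgeR adjusted p = 0.020) and without knockout replicate 3 (0.046). It was also called without the 3 libraries richest in fibroblast transcripts (0.013). With total counts as the scaling, 3 genes of the list were higher and 5 lower, against 16.2 percent and 31.1 percent over all genes.

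Upstream, Trp53 and the kinases Atr, Chek1 and Chek2 were lower, and Foxo1, Foxo3 and Ddit3 were higher. Of 14 tested genes in this list, 4 were higher and 5 lower (median log2 0.11), against 24.2 percent higher and 23.1 percent lower over all tested genes. Scaled by total counts, 2 were higher and 5 lower, against 16.2 percent and 31.1 percent over all. Trp53, which encodes p53, the activator of Bbc3, Pmaip1 and Bax, was lower (log2 −0.68), at 108 ± 16.1 CPM in miR-29ab1-/- and 172 ± 9.66 CPM in WT crypts (SD, n = 4; edgeR adjusted p = 0.0031). The checkpoint kinases Atr, Chek1 and Chek2 were lower by log2 fold changes of −0.78, −1.06 and −0.78, and the cell cycle factor E2f1 by −1.10 (edgeR adjusted p from 0.0016 to 0.0058); proliferation markers were lower in the same libraries. Neither Mdm2, a p53 target and inhibitor (log2 0.31, edgeR adjusted p = 0.11), nor the break-sensing kinase Atm (log2 −0.61, 0.083) was called. Both were called with the replicate number as a block (edgeR adjusted p = 0.025 and 0.0043), Mdm2 also without WT replicate 4 (0.045). Atm was also called without knockout replicate 3 (0.026) and without the 3 libraries richest in fibroblast transcripts (0.020). Foxo1 was 2.04-fold higher (62.9 ± 17.3 CPM in knockout against 30.9 ± 1.48 CPM in WT crypts, edgeR adjusted p = 0.0026) and Foxo3 1.53-fold (80.2 ± 12.2 CPM in knockout against 52.3 ± 4.86 CPM in WT crypts, edgeR adjusted p = 0.0053). Ddit3 (CHOP), a stress factor known to induce Bcl2l11, was 3.11-fold higher, at 21.9 ± 5.98 CPM in knockout and 7.05 ± 0.96 CPM in WT crypts (edgeR adjusted p = 0.0011), and the p53 cofactor Ppp1r13b was 1.38-fold higher (edgeR adjusted p = 0.0033). The calls of Foxo3 and Ppp1r13b were lost with total counts as the scaling (edgeR adjusted p = 0.15 and 0.28).

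Of 17 genes whose products bind, modify or degrade members of the family, 4 were higher and 3 lower (median log2 0.13), a share called that is below the 47.3 percent of all tested genes. Scaled by total counts, 2 of these 17 were higher and 5 lower, against 16.2 percent and 31.1 percent over all genes. Dynll1, the light chain that tethers the BIM protein, was 2.01-fold lower, at 107 ± 18.0 CPM in miR-29ab1-/- and 216 ± 19.9 CPM in WT crypts (SD, n = 4; edgeR adjusted p = 0.0013). Akt1, whose kinase inactivates Bad and FOXO factors, was 1.77-fold lower (edgeR adjusted p = 0.0018). Cul5, a ubiquitin ligase scaffold, was lower by a log2 fold change of −0.41 (edgeR adjusted p = 0.019), a call lost without WT replicate 4 (0.053). Mapk3, the kinase ERK1 that marks BIM for degradation, was 2.22-fold higher (edgeR adjusted p = 0.0034), Mapk8, the stress kinase JNK1, 1.73-fold (0.0097) and Pim1, which phosphorylates Bad, 2.09-fold (0.011). Gsk3b, which marks MCL1 for degradation, was 1.39-fold higher (edgeR adjusted p = 0.014); its call was lost without knockout replicate 1 or 4 (0.057 and 0.061). Huwe1, a ubiquitin ligase of MCL1, was not called at a log2 fold change of −0.54 (edgeR adjusted p = 0.11). It was called with the replicate number as a block (edgeR adjusted p = 0.0056) and without the 3 libraries richest in fibroblast transcripts (0.019). The calls of Gsk3b and Pim1 were lost with total counts as the scaling.

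**Figure D5:**
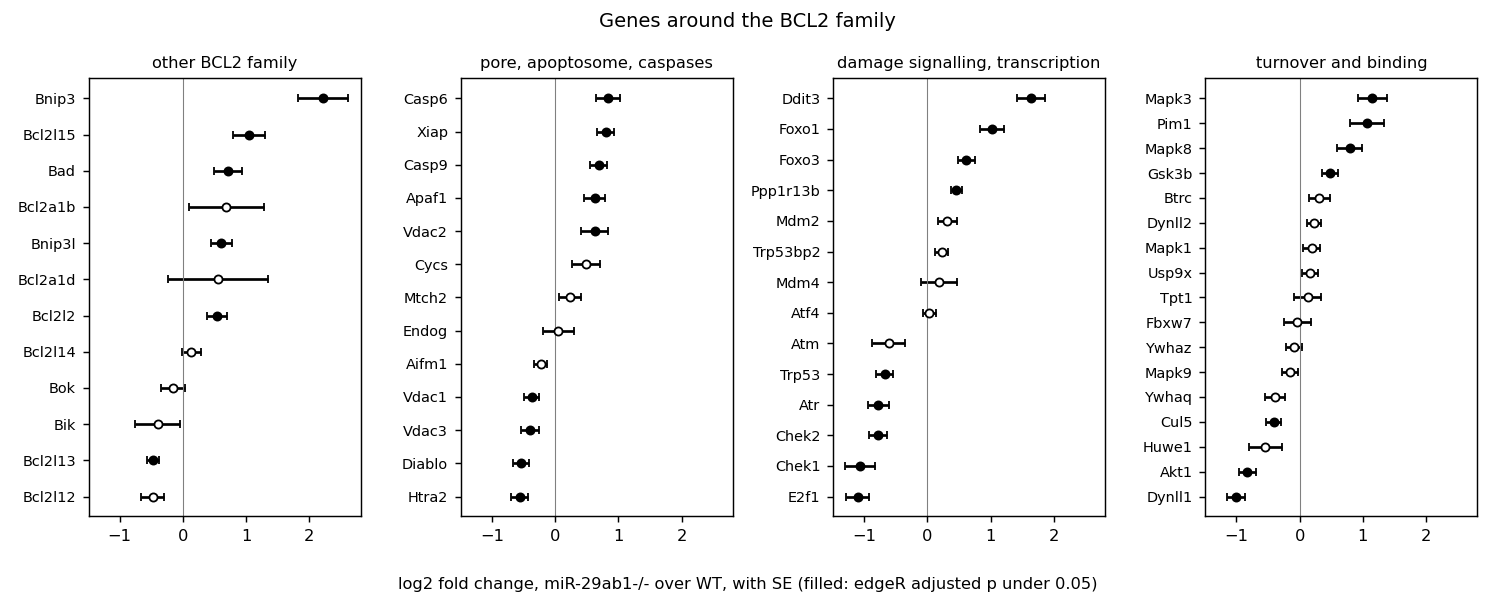
Log2 fold change, miR-29ab1-/- over WT, with SE (horizontal axis) of the tested genes of the 4 lists around the family, sorted within each panel; filled points are called by edgeR and open points are not. Bnip3 is farthest to the right at 2.22 and E2f1 farthest to the left at −1.10.

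The start-site windows of the members were searched for motifs of p53 and FOXO factors, on both strands, in RefSeq windows of 250 bases before to 50 bases after each start (GRCm38.p6). For 9 members 16 windows were held; Pmaip1 was not searched. The FOXO element GTAAACA was in a window of Bcl2l11 and of Bbc3, against 3.65 percent of all 32851 windows. A p53 half-site was in the window of Bax and in a window of Bmf, against 8.36 percent of all windows. The stretches are printed with the match in capitals; a match is a run of letters, not evidence of binding.
Bcl2l11, FOXO element (chr2:128125795-128125833, plus strand): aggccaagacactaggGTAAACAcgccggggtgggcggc
Bbc3, FOXO element as its reverse complement (chr7:16310078-16310116, plus strand): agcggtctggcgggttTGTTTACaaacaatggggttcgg
Bax, p53 half-site (chr7:45467074-45467115, minus strand): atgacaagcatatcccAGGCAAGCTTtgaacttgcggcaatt
Bmf, p53 half-site (chr2:118544775-118544816, minus strand): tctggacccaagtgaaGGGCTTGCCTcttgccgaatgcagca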

How the data were processed

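The deposited table holds, per the file headers, a read count for each gene in each library; 8.04 to 9.18 percent of a library's values were not whole, so these deposited values were taken as estimated counts and rounded here. A further set of deposited columns without a unit was taken as FPKM from its values. Dividing them by the count gave a factor whose median over genes with many counts went with 1 over the library total, within 0.664 percent. The submitters' processing notes name HISAT2 and DESeq2, without a role; the counting program, build, annotation and strandedness were not given in the sources used here. Libraries held 9481201 to 14612798 counts in miR-29ab1-/- and 10719668 to 16231099 counts in WT crypts, and no library repeated another. The count test was the quasi-likelihood test of edgeR 4.0.16 (R 4.3.3), with genotype as the sole term, after filterByExpr and TMM scaling; each SE was taken as the absolute log2 fold change divided by the square root of F. The test was tested on simulated data. Alternatives used DESeq2 1.42.0 and limma 3.58.1 (voom, and trend on log2(FPKM + 0.5)), among 19 in all. The members and the gene lists were chosen with earlier results of these data known. Named genes are all members, every called gene of the 4 lists, and for Mcl1 and the member with the smallest p the 3 genes with the highest correlation of log2 CPM (prior count 2). Cycs, Mdm2, Atm and Huwe1 are also named, for their roles, and were chosen after their values were seen. Some genes of the pore, apoptosome and caspase list are not reported here and are in none of its counts. Deviations from the group means correlated at 0.31 to 0.52 between libraries with the same replicate number, in all 4 pairs. Between unlike numbers the values ran from −0.48 to 0.45, the latter for knockout replicate 1 with WT replicate 2. The numbers may thus mark pairs. This rests on the data, as no label says what the number stands for. The fit behind every value not named otherwise has no block, and the fit with the replicate number as a block is one of the alternatives. Replicate 4 of both genotypes had 1 and 3 counts over 4 Y-linked genes and the other libraries 1285 to 2061. The level of the miR-29 genes was not analysed here, so it does not check the genotype labels.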

Additional observations from a re-analysis of the deposited data

How the results depend on the processing

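All 39 called genes that are named kept their direction in all 740 refits that gave a value, and 20 of them kept their call in every refit. With total counts as the scaling, 5 members and 6100 of all genes were called. Without knockout replicate 1, 3 genes of the wider BCL2 family and 4996 of all genes were called. In replicates 1 to 3 alone, 5 of the pore, apoptosome and caspase genes and 4692 of all genes were. With the replicate block, 8 members, 7 of the wider family, 10 pore, apoptosome and caspase genes, 11 upstream genes and 9 turnover genes were called, with 7226 over all genes; it changed no member's call, and of the genes named it changed the calls of Cycs, Mdm2, Atm and Huwe1. The log2 fold change of Bak1 changed sign with upper-quartile factors (−0.070), total counts (−0.25), no low-count filter (−0.011) and FPKM (−0.25), and it was called in none of these. Leaving out single libraries put Bax between −0.13 and 0.0072 and Bak1 between −0.13 and 0.096, members called between 6 and 8, the wider family between 3 and 7 and pore, apoptosome and caspase genes between 6 and 9, and all genes called between 4988 and 6328. In FPKM 4 members were called higher and 2 lower, against 2034 higher and 4317 lower of 12908 genes. Bcl2l11, Bbc3 and Bmf were not called (log2 differences of 0.35, 0.35 and 0.55, limma adjusted p = 0.28, 0.12 and 0.080). The causes of these changes were not tested. Bmf had 12 to 48 counts per library; with a mean of at least 50 counts required it was not tested.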
